A study of Erythranthe pardalis x Erythranthe guttata and Erythranthe pardalis with 20 samples.

Results

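Migut.N01183 is the Mimulus gene to which the study's primer list gives the name ZHOUPI. It is 1 of the 28140 annotated genes counted in every library, and it was chosen by its identifier and not by its values. RNA was sequenced from unfertilized ovules of SEC39, an inbred line of M. pardalis, in 5 libraries (0 days after pollination, DAP). The remaining libraries came from whole hybrid seeds set when SEC39 was pollinated with CSS4, an inbred line of M. guttatus, and number 4 each for 2, 6 and 8 DAP and 3 for 4 DAP. Each library is a pool. The sample labels describe it as fruits of different plants, whereas the study's methods give a single mother for each seed pool and for ovule replicates 1 and 2, and several mothers for ovule replicates 3 to 5, so that it is unsure what the spread between replicates covers. Only this direction of the cross was sequenced, seeds were shaken out of cut fruits and may carry some placenta, and the counts do not separate the parental alleles.

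The name needs a caution. The study's tables of nearest Arabidopsis homologues, as far as they were at hand, give a homologue for 4762 genes. They pair Arabidopsis ZHOUPI (AT1G49770, also called RGE1) with 1 gene, Migut.B00361, and Migut.N01183 is not among the genes listed. Both genes are therefore described side by side below, and which of them is the orthologue was not tested.

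In Arabidopsis, ZHOUPI is a basic helix-loop-helix (bHLH) transcription factor of the endosperm, the tissue that nourishes the embryo. Together with its bHLH partner ICE1 it is needed for the endosperm to break down and make room for the growing embryo, and for an intact cuticle to form on the embryo surface. Its activity is required for expression of ALE1, a subtilisin-like protease of the endosperm, which acts in a signalling loop with the embryonic peptide TWS1 and the receptor kinases GSO1 and GSO2.

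The study designed 4 primers for Migut.N01183. They are shown because they are the sequences by which the name ZHOUPI is attached to this gene. The Fw and Rv primers were for real-time PCR, and the AluI pair was for RT-PCR followed by Sanger sequencing and restriction digestion.
Mg_ZOU_Fw: ggtttcgtcggatcggaatag
Mg_ZOU_Rv: gctgcAGCTagcctgtatatc
Mg_ZOU_AluI_Fw: gggacatgtttgcaaatcttcat
Mg_ZOU_AluI_Rv: gccctttccgccttcttt
Each is written 5′ to 3′, and capitals mark AGCT, the recognition sequence of AluI, which reads the same on both strands. The motif starts at base 6 of the reverse real-time PCR primer, and 5 of all 44 primers listed hold it (11.4%). No genome was used here, so positions of the gene and of the amplified stretches are not given.

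Transcripts of Migut.N01183 were not detected in ovules, were few at 2 and 4 DAP, and were 6.30-fold to 12.7-fold more abundant at 6 and 8 DAP than at these earlier ages. Without 2 DAP replicate 3, described below, the rise from 2 DAP was 11.9-fold to 6 DAP and 15.2-fold to 8 DAP, against 6.30-fold and 8.07-fold with it. Its count was 0 in all 5 ovule libraries, where total counts ran from 7588155 to 13210974. A count of 0 still allows for 3 counts, so the upper limit for these libraries lay from 0.158 to 0.332 normalized CPM (counts per 1000000 of a library's TMM-scaled total). The 2 DAP libraries held 5, 9, 40 and 13 counts in replicates 1 to 4, or 0.259, 0.863, 3.47 and 1.17 normalized CPM. Replicate 3 stood above the other 2 DAP libraries, and its 95% exact Poisson interval of 2.48 to 4.72 did not meet theirs, whose highest bound was 2.01.

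At 4 DAP the counts were 25, 10 and 13, or 1.29, 0.662 and 0.787 normalized CPM. These values lay inside the range of the 2 DAP libraries. At 6 DAP the counts were 124, 150, 89 and 87, or 10.2, 10.7, 7.84 and 7.59 normalized CPM. At 8 DAP they were 119, 142, 94 and 129, or 10.9, 12.6, 9.98 and 13.1. All 8 of these later libraries were above all 12 earlier ones, which was so for 3.46% of the 20242 genes tested (700 genes). The ranges at 6 and 8 DAP overlapped. Intervals and limits of this kind cover counting error only.

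**Figure D1:**
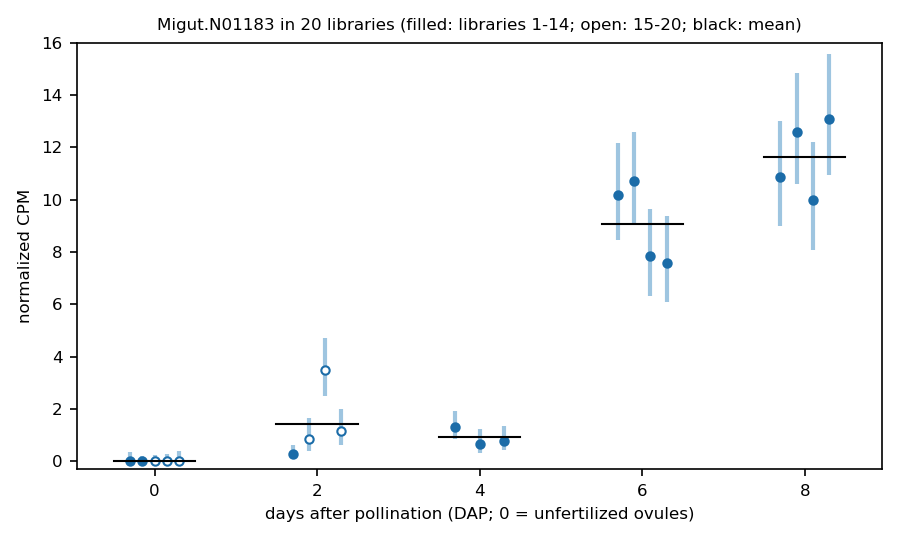
Normalized CPM of Migut.N01183 (vertical axis) in each of the 20 libraries by days after pollination (horizontal axis), with vertical bars for 95% exact Poisson intervals of the count and black lines for means. The 6 and 8 DAP libraries sit between 7.59 and 13.1, above all earlier libraries, of which 2 DAP replicate 3 at 3.47 is the highest; open circles are the libraries numbered 15 to 20.

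The seed means were 1.44 ± 1.40 (SD, n = 4) at 2 DAP, 0.913 ± 0.332 (n = 3) at 4 DAP, 9.08 ± 1.59 at 6 DAP and 11.6 ± 1.45 normalized CPM at 8 DAP (n = 4 for both). Against the limit of 3 counts in each ovule library, the mean was at least 6.02-fold higher at 2 DAP, 3.82-fold at 4 DAP, 38.0-fold at 6 DAP and 48.6-fold at 8 DAP. Without 2 DAP replicate 3 the limit at 2 DAP was 3.20-fold. All 4 of these rises were called at an FDR of 0.01 by edgeR, with adjusted p-values of 3.11e-05, 0.000111, 1.42e-07 and 6.95e-08, beside 11.8% of all genes tested called up in the earliest comparison and 21.1%, 32.6% and 34.8% called in either direction in the others. The genes tested had more than 1 CPM in at least 3 libraries, which Migut.N01183 reached only in seeds. These tests were thus not independent of its high seed values. With the maternal plant as a block the call from 0 to 4 DAP was not made (edgeR adjusted p = 0.0136). A joint test of any change over time gave an adjusted p of 1.73e-07 by edgeR, and 50.3% of genes passed it. Ranked by that p the gene came 1019th of 20242, an order by evidence and not by the size of the change. In whole seeds, fewer cells with the transcript and less transcript per cell cannot be told apart.

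The order of the levels was 8, 6, 2, 4 and 0 DAP, and the neighbours 6 and 8 DAP, and 2 and 4 DAP, did not differ beyond their spread. From 4 to 6 DAP Migut.N01183 rose 9.94-fold by its means, a log2 fold change of 3.29 (standard error 0.61, edgeR adjusted p = 0.00150), a transition in which 5.22% of genes were called up. The call rests on few 4 DAP libraries, and the adjusted p was 0.0142 without 4 DAP replicate 2 and 0.0137 without replicate 3. From 2 to 6 DAP, where 6.10% of genes were called up, the log2 fold change was 2.67 (edgeR adjusted p = 0.00185). Against 8 DAP it was 3.03 from 2 DAP and 3.65 from 4 DAP (edgeR adjusted p = 0.000374 and 0.000248), with 9.90% and 12.3% of genes called up. The call from 0 to 2 DAP was not made within the libraries numbered 1 to 14 (adjusted p = 0.0275), where 2 DAP is a single library with 5 counts.

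Between 2 and 4 DAP the log2 fold change was -0.62 with a standard error of 0.58 (edgeR adjusted p = 0.580). Its direction depended on 2 DAP replicate 3, and without that library the log2 fold change was 0.31 (adjusted p = 0.802). Between 6 and 8 DAP it was 0.36 with a standard error of 0.48 (edgeR adjusted p = 0.599), and here the scaling mattered. Over total counts without TMM the log2 fold change was -0.01, beside a median of -0.44 over all genes. With the real-time PCR reference genes PEX4 (Migut.A00226) and EF1A (Migut.D02188) as the scale, the means were 9.43 at 6 DAP and 8.20 at 8 DAP, in the opposite order. PEX4 itself rose from 0 to 2 DAP by a log2 fold change of 1.43 (edgeR adjusted p = 0.000980), so it was not level over these samples.

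By mean count Migut.N01183 moved from the lower to the upper part of all genes listed. It exceeded 39.0% of the 28140 genes at 2 DAP and 36.2% at 4 DAP, and then 59.2% at 6 DAP and 65.1% at 8 DAP. Among genes with a count at the time point, the shares below it were 27.3%, 24.2%, 52.0% and 57.2% in the same order. In single libraries the place over all genes ran from 28.2% to 48.4% at 2 DAP, from 34.4% to 38.5% at 4 DAP, from 56.1% to 62.0% at 6 DAP and from 63.1% to 67.4% at 8 DAP. At 6 and 8 DAP it was thus a gene near the middle of the range. The scale is counts and not counts per length, so a long gene ranks above a short one of equal molar level.

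**Figure D2:**
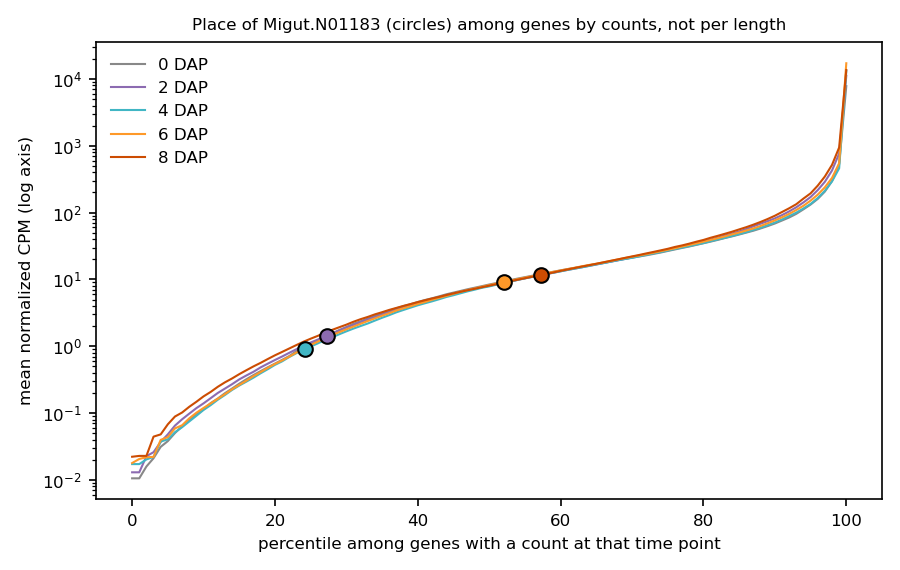
Mean normalized CPM (vertical log axis) against percentile (horizontal axis) for all genes with a count at a time point, 1 line per time point, with circles for Migut.N01183. The circles lie at 27.3% and 24.2% at 2 and 4 DAP and at 52.0% and 57.2% at 6 and 8 DAP; there is none for ovules, where the count was 0.

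Of the 20242 genes tested, 301 shared the later course of Migut.N01183. In these, all 6 and 8 DAP libraries were above all earlier ones. They were called up from 4 to 6 DAP and not called from 6 to 8 DAP. A rule on counts in ovules and in each seed library, without these calls, left fewer genes. No count in any ovule library was found for 4602 genes listed, most of which did not pass the filter on low counts. Of those that passed, 102 were called up from 4 to 6 DAP, a larger share than the 5.22% of all genes tested. They could pass only through seed libraries, so the filter itself favours such calls. A count in every seed library, in addition to none in ovules, left 46 genes that passed the filter. Beside 3.46% of all genes tested, 11 of them also had all 6 and 8 DAP libraries above all earlier libraries. Besides Migut.N01183 these were Migut.J01121, Migut.F01931 and Migut.G00700, whose nearest homologues are in the plant self-incompatibility S1 family of small secreted proteins, Migut.J01722 and Migut.J01723 (UDP-glycosyltransferases), Migut.N02144 and Migut.N02167 (RING/U-box proteins), Migut.I00331 (a pectin methylesterase inhibitor), and Migut.E00510 and Migut.E01206, for which the tables give no homologue. They were chosen after their values were seen, by a rule that copies the pattern of Migut.N01183.

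Migut.B00361, the gene that the homology tables pair with Arabidopsis ZHOUPI, was detected later. It had no count in ovules and none at 2 DAP. At 4 DAP it held 1, 2 and 4 counts, at 6 DAP 13, 13, 42 and 14, and at 8 DAP 84, 59, 76 and 125. In normalized CPM the 6 DAP libraries were at 1.07, 0.928, 3.70 and 1.22, and the 8 DAP libraries at 7.67, 5.23, 8.07 and 12.7. The 6 DAP libraries did not meet the 8 DAP libraries, and 6 DAP replicate 3 was the highest at its age.

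Its mean was 0.142 ± 0.0957 at 4 DAP (SD, n = 3), 1.73 ± 1.32 at 6 DAP and 8.41 ± 3.11 at 8 DAP (both n = 4). The log2 fold change was 3.54 (standard error 0.76) from 4 to 6 DAP and 2.28 (standard error 0.57) from 6 to 8 DAP. With edgeR adjusted p-values of 0.00658 and 0.00993 both steps passed narrowly, beside 5.22% and 7.52% of genes called up. Migut.B00361 entered the test only through 6 and 8 DAP libraries, where it is high. The earlier call was lost without any of the 4 DAP libraries, 6 DAP replicates 3 or 4, or 8 DAP replicates 1 or 3 (adjusted p from 0.0103 to 0.0433). The later call was lost without any of the 4 or 8 DAP libraries or 6 DAP replicates 1, 2 or 4 (0.0113 to 0.0372). Against 3 counts in each ovule library the 8 DAP mean was at least 35.2-fold higher.

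From 6 to 8 DAP the mean of Migut.N01183 was 1.28-fold higher and that of Migut.B00361 4.86-fold higher, or 7.84-fold without 6 DAP replicate 3. The log2 ratio of their counts, with 0.5 added to each, was 3.21, 3.48, 1.07 and 2.59 at 6 DAP and 0.50, 1.26, 0.30 and 0.05 at 8 DAP. Only 6 DAP replicate 3 fell among the 8 DAP libraries. The mean ratio was 2.59 ± 1.07 and 0.53 ± 0.52 (SD, n = 4 each), a difference of -2.06 with an exact two-sided permutation p of 0.0571, where the smallest p possible is 0.0286. Without 6 DAP replicate 3 the difference was -2.56, a value with no test here, since leaving out the only overlapping library fixes the order. This ratio is taken within a library, so that scaling does not enter it, and it says nothing of which gene has more transcripts, since gene lengths were not used.

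Among other homologues of the ZHOUPI pathway, the protease ALE1 was called up from 4 to 6 DAP and again from 6 to 8 DAP, and the peptide TWS1 from 6 to 8 DAP. The list holds 7 genes, Migut.B00361 among them, and over the 4 transitions 8 calls were made at an FDR of 0.01. The calls up of Migut.B00361 from 4 to 6 DAP and from 6 to 8 DAP, given above, are included in the counts below. Beside 11.8% of all genes called up and 6.46% called down from 0 to 2 DAP, 1 member was called up and 1 down. None was called from 2 to 4 DAP, where 0.198% of genes were. From 4 to 6 DAP 2 were called up and none down, beside 5.22% and 2.12% of all genes, with a median log2 fold change of 2.86 beside 0.00 over all genes. From 6 to 8 DAP 3 were called up and 1 down, with medians of 2.17 and -0.07, beside 7.52% of genes called up and 6.77% called down. Single libraries decided several of these calls, whose number ran from 4 to 10 when 1 library was left out. It was 4 without any of the 4 DAP libraries, and 5 without any of the 6 DAP libraries or without 8 DAP replicates 1 or 3.

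ICE1, the bHLH partner of ZHOUPI, is represented by Migut.D01191. Its ovule libraries were at 0, 0.0527, 0.0609, 0 and 0 normalized CPM, its 2 DAP libraries at 0, 0.192, 3.73 and 0.0902, and its 4 DAP libraries at 0.826, 0.265 and 0.242. It was at 7.06, 5.14, 7.14 and 4.10 at 6 DAP and at 24.3, 15.4, 36.1 and 29.9 at 8 DAP. As with Migut.N01183, 2 DAP replicate 3 stood above the other 2 DAP libraries, and here above all 4 DAP libraries as well. The adjusted p by edgeR was 0.0113 from 4 to 6 DAP and 0.0301 from 6 to 8 DAP, both short of the FDR, and it was 6.16e-05 and 0.000538 without 2 DAP replicate 3. Its call up from 0 to 2 DAP (adjusted p = 0.00649) was not made without that library (0.493) or without any ovule library.

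ALE1, the protease whose expression needs ZHOUPI in Arabidopsis, is represented by Migut.M01372. It was detected in ovules, at 2.18, 2.42, 1.77, 0.0791 and 1.22 normalized CPM, and was at 0.674, 5.75, 4.94 and 1.99 at 2 DAP and 2.48, 1.92 and 2.48 at 4 DAP. It then reached between 10.9 and 20.2 at 6 DAP and 148, 104, 380 and 339 at 8 DAP. The libraries did not overlap in either of these steps. The log2 fold change was 2.86 from 4 to 6 DAP (edgeR adjusted p = 0.00545) and 3.86 from 6 to 8 DAP (adjusted p = 0.000103). The earlier of these calls was lost without any of the 4 DAP libraries or 6 DAP replicates 1, 2 or 3 (adjusted p from 0.0106 to 0.0368). Migut.M01372 thus continued upward between 6 and 8 DAP, where no change of Migut.N01183 was detectable, and the difference between the genes was not tested.

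Migut.C00495, the homologue of the peptide precursor TWS1, had 1 count in each 4 DAP library, or 0.0595 ± 0.00737 normalized CPM (SD, n = 3). It was at 0.825 ± 0.194 at 6 DAP and 4.96 ± 2.32 at 8 DAP (n = 4 each), and the later step passed narrowly (edgeR adjusted p = 0.00899, from 0.00394 to 0.0349 with 1 library left out, and above 0.01 in 11 of 20 such fits). Migut.M02029, the homologue of the receptor GSO1, was at 34.2 ± 4.90 at 6 DAP and 16.1 ± 2.02 at 8 DAP (n = 4 each), without overlap. Its log2 fold change of -1.09 was called down (edgeR adjusted p = 0.00212, and 0.0112 without 8 DAP replicate 3). ALE2 and ACR4 are receptor kinases of the epidermis. The ALE2 homologue Migut.D00491 had its lowest mean at 6 DAP, 20.1 ± 2.06, with no call at any single transition. The ACR4 homologue Migut.B00097 was called down from 0 to 2 DAP, from 16.4 ± 4.67 (n = 5) to 6.61 ± 2.04 (n = 4), with an adjusted p of 0.00318 by edgeR that was 0.0113 and 0.0152 in the fits without 2 DAP replicate 3 or 4.

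**Figure D3:**
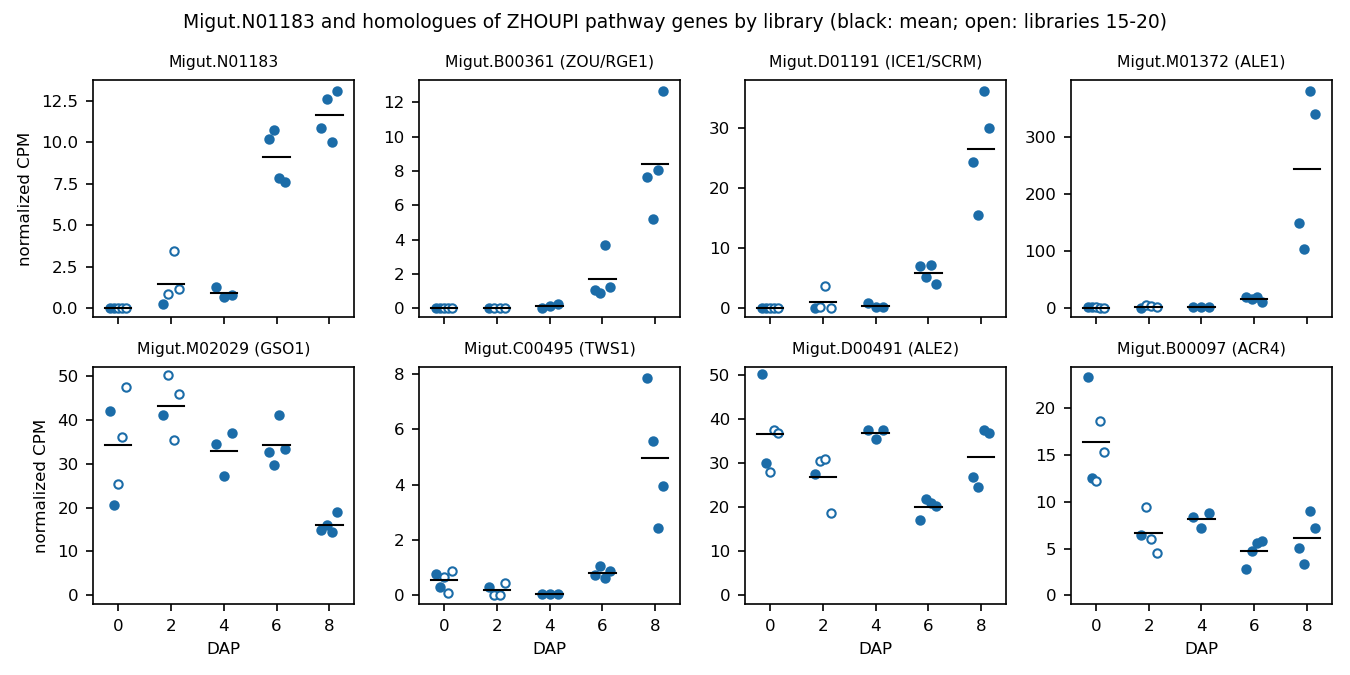
Normalized CPM (vertical axes, each panel with its own scale from 0) by days after pollination for Migut.N01183 and 7 homologues of ZHOUPI pathway genes, with 1 circle per library, open for libraries 15 to 20, and black lines for means. Migut.N01183 is near its highest level at 6 DAP, with a mean of 9.08, while the means of Migut.B00361 and ALE1 at 6 DAP are 1.73 and 16.7 against 8.41 and 243 at 8 DAP.

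Genes of the cuticle, the waxy layer whose embryonic form depends on ZHOUPI in Arabidopsis, are represented by 11 homologues. From 4 to 6 DAP none was called up and 2 were called down, beside 5.22% and 2.12% of all genes, so that the count called up is near that of genes at large. ATT1 (Migut.E01083), a fatty acid hydroxylase of the cytochrome P450 family, fell by 2.20 on the log2 scale (standard error 0.24, edgeR adjusted p = 7.65e-06), from 39.5, 30.7 and 44.6 to 6.41, 8.56, 8.46 and 9.94 normalized CPM. FDH (Migut.A00331), an elongase of very long fatty acids, fell by 1.65 (standard error 0.33, adjusted p = 0.00157), from 154, 162 and 178 to 50.8, 64.1, 46.9 and 47.5. The median log2 fold change of the list was 0.44, against 0.00 over all genes. Earlier, from 0 to 2 DAP, LACS2 (Migut.B00284), an LCR homologue (Migut.A00740) and PDF2 (Migut.H01063) had been called up, with log2 fold changes of 1.48, 2.28 and 4.18.

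From 6 to 8 DAP 3 cuticle homologues were called up and 5 down, beside 7.52% and 6.77% of all genes, and the list's median log2 fold change was -1.83. The CER1 homologues Migut.B01474 and Migut.B01473, enzymes of alkane synthesis for wax, fell by 4.51 and 3.04 on the log2 scale (edgeR adjusted p = 1.07e-06 and 3.94e-05). The acyl-CoA synthetases LACS2 (Migut.B00284) and LACS1 (Migut.D00057) fell by 1.88 and 1.86. ABCG11 (Migut.B00585), a transporter that exports cuticular lipids, fell by 1.83 (adjusted p = 0.00660, and 0.0113 to 0.0283 without any of the 6 DAP libraries or 8 DAP replicates 1, 2 or 3). The hydroxylase homologues rose, LCR (Migut.B01765) by a log2 fold change of 2.26, a different LCR homologue (Migut.A00740) by 1.71 and ATT1 by 1.08. SHN1 (Migut.A00047), an activator of wax and cutin genes, was at 0.661 ± 0.182 and 1.37 ± 0.908 at 6 and 8 DAP and was not called. PDF2 (Migut.H01063), a homeodomain protein of the epidermis, reached 23.4 to 43.5 at 6 DAP and missed the FDR in both steps (edgeR adjusted p = 0.0543 and 0.0122). The later step, a log2 fold change of -2.18, was called without ovule replicates 1, 2 or 4 or 2 DAP replicates 1 or 3 (adjusted p from 0.00402 to 0.00966).

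**Figure D4:**
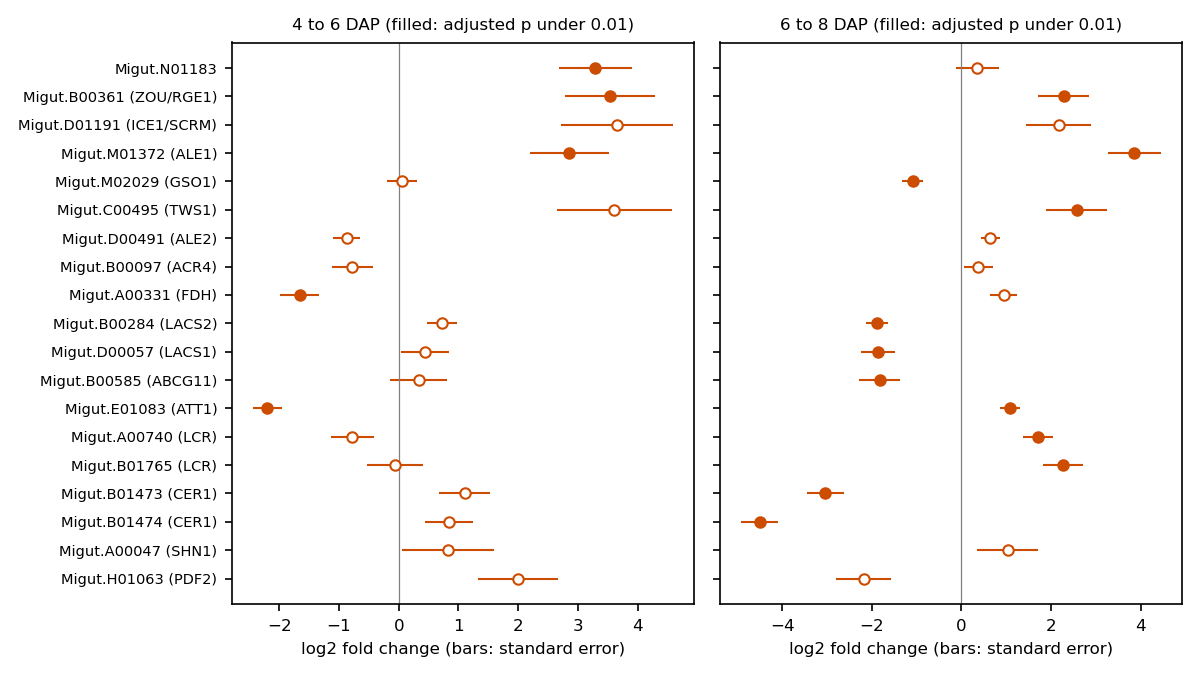
Log2 fold changes (horizontal axes) from 4 to 6 DAP and from 6 to 8 DAP for Migut.N01183 and the homologues of ZHOUPI pathway and cuticle genes, with bars for standard errors and filled circles for an edgeR adjusted p under the FDR of 0.01. Migut.N01183 rose by 3.29 in the earlier step and lay at 0.36 in the later, where CER1 homologues fell by 4.51 and 3.04; both panels use the same 6 DAP libraries.

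Expansins loosen cell walls, and ZHOUPI promotes the softening of endosperm cell walls in Arabidopsis. Of 15 homologues 14 were tested, and 3 were called up and 2 down from 4 to 6 DAP, beside 5.22% and 2.12% of all genes. Migut.F01692 (EXPB2) rose by a log2 fold change of 1.98 (edgeR adjusted p = 0.00382, and 0.0106 to 0.0319 without any of the 4 DAP libraries or 6 DAP replicates 1 or 2). Migut.F01694 (EXPB2) and Migut.F01696 (EXPB4) fell by 5.13 and 4.60 on the log2 scale in that step. Migut.F01690 (EXPB4) and Migut.N01289 (EXPB2), chosen after their values were seen, were the other 2 called up, with log2 fold changes of 1.79 and 1.77. All 3 that rose fell again from 6 to 8 DAP, with log2 fold changes of -2.34 for Migut.F01692, -2.21 for Migut.F01690 and -2.20 for Migut.N01289. Migut.F01689 (EXPB2) was at 0.303 or less from 4 DAP on and was not called. These genes have close identifiers and similar names, and reads of near-identical copies may be shared among them or lost to the filter on unique mapping.

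Of 14 other bHLH homologues 12 were tested, and 1 was called up and 1 down from 4 to 6 DAP, close to the 5.22% and 2.12% of all genes. Migut.N01157, whose nearest homologue is AT3G19500, rose by a log2 fold change of 3.84 (edgeR adjusted p = 0.00550, and 0.0114 to 0.0321 without any of the 4 DAP libraries or 6 DAP replicates 2, 3 or 4) and again by 4.06 (adjusted p = 0.000147), from at most 0.361 normalized CPM before 6 DAP to between 12.3 and 27.9 at 8 DAP. Migut.K01326 (AT3G28857) was between 10.3 and 26.1 at 2 and 4 DAP, between 1.23 and 4.14 at 6 DAP, and had no count at 8 DAP. Migut.D00568 (AT2G42280) and Migut.D01611 (BIM1), next in size of change among those tested, had log2 fold changes of -0.73 and -0.70 and were not called. The homologues in all of these lists come from tables of genes that the study in large part selected on these samples, so the counts say nothing independent of that choice.

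The genes whose library values followed Migut.N01183 most closely were found by Pearson's r of log2(normalized CPM + 0.5) over the 20 libraries, among 20241 genes. These libraries share 5 ages, so high values of r are common, and 367 genes had an r of at least 0.9 and 116 of at least 0.95. The closest was Migut.M01476 (r = 0.992), a homologue of C/VIF2, an inhibitor of invertases, the enzymes that split sucrose. It was at 0, 0.316, 0, 0 and 0 in ovules, at 0.259, 13.9, 82.3 and 5.68 at 2 DAP, at 5.57, 3.78 and 2.73 at 4 DAP, at 493, 409, 281 and 365 at 6 DAP and at 608, 711, 544 and 548 at 8 DAP. Its high 2 DAP library was replicate 3, as for Migut.N01183.

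Next came Migut.A01016 (XTH2, r = 0.991), an enzyme that cuts and rejoins xyloglucan in cell walls, and then Migut.N02921 (0.989), Migut.N03278 (0.987), Migut.N01866 (0.985) and Migut.I00067 (0.984), for which the tables give no homologue. Migut.O00792 (CYP98A3, r = 0.983) is a homologue of a hydroxylase of the lignin pathway. Migut.J00461 (AT4G36010, r = 0.983) is in the thaumatin superfamily, Migut.D00501 (AT4G28780, r = 0.983) in the GDSL-like lipases, and Migut.H00669 (AtENODL20, r = 0.982) in the early nodulin-like proteins. All 10 were called up from 4 to 6 DAP and none was called from 6 to 8 DAP, a pattern that the choice by r favours. The call was lost for Migut.N01866 without any of the 4 DAP libraries, for Migut.J00461 without 4 DAP replicate 2 or 3 and for Migut.O00792 without replicate 2, with adjusted p-values from 0.0115 to 0.0198 by edgeR. Without 2 DAP replicate 3, Migut.D00501 was also called up from 6 to 8 DAP (adjusted p = 0.00275 by edgeR, and 0.0550 with it). In all 10, 2 DAP replicate 3 was the highest of the 2 DAP libraries.

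**Figure D5:**
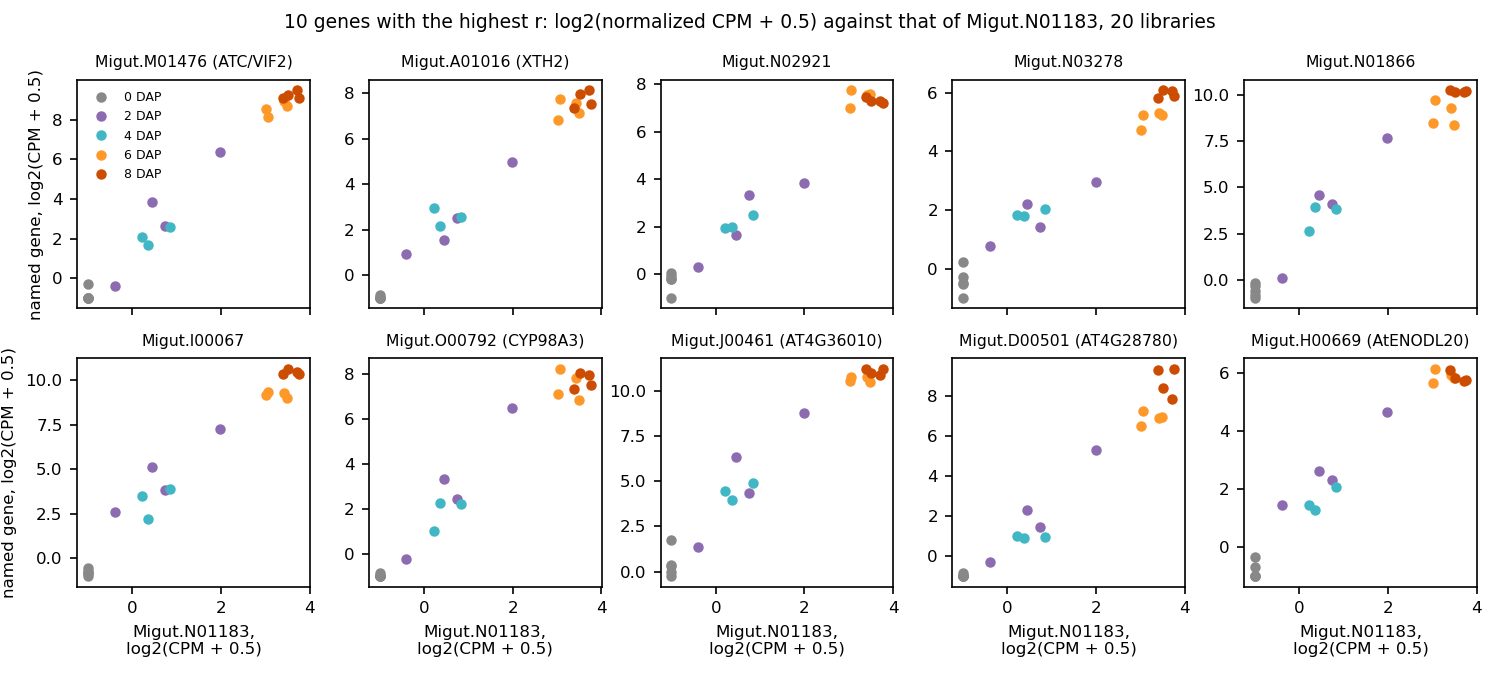
Log2(normalized CPM + 0.5) of the 10 genes with the highest r (vertical axes) against that of Migut.N01183 (horizontal axes), with 1 point per library coloured by time point. In each panel the ovule libraries lie lower left and the 6 and 8 DAP libraries upper right, and 2 DAP replicate 3 is the 2 DAP point nearest to the latter; r runs from 0.982 to 0.992.

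Within the libraries numbered 1 to 14 the r of these 10 genes ran from 0.981 to 0.995, and within the 6 libraries numbered 15 to 20, which hold only ovules and 2 DAP seeds, from 0.931 to 0.998. Over the 15 seed libraries alone it ran from 0.965 to 0.985. The names near the top depended on the measure, and 2 of the 10 were also among the 10 highest by Spearman's rho, 4 over seed libraries alone, 6 within libraries 1 to 14, and none by residuals from the time point means. When 1 library was left out, 8 to 10 were kept. The values run the opposite way in Migut.D00986 (IQD26, a calmodulin-binding protein, r = -0.965), Migut.B00531 (AT5G10530, a lectin-type protein kinase, -0.963) and Migut.K00318 (-0.962), the 3 lowest. Migut.D00986 was between 25.2 and 38.7 normalized CPM in ovules and between 7.60 and 9.13 at 8 DAP.

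Library-to-library differences within a time point give another view, the r of residuals from the time point means. The highest were Migut.M01632 (AT5G55970, a RING/U-box protein, 0.949), Migut.K01157 (AT1G77240, 0.945), Migut.M01442 (0.945), Migut.L01156 (AT1G13635, a DNA glycosylase, 0.942) and Migut.N00852 (0.939), each over 20 libraries. The 2 DAP libraries were far apart in these genes. Migut.M01632 was at 0, 4.89, 97.9 and 7.22 normalized CPM in 2 DAP replicates 1 to 4. Without replicate 3 the 5 residual r values were between 0.813 and 0.861. Over time these genes did not follow Migut.N01183 as closely, and Migut.K01157 was between 85.3 and 106 at 6 DAP but between 0.531 and 1.68 at 8 DAP.

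ICE1 had the highest r of the pathway list (0.941, rank 155), followed by ALE1 (0.866) and Migut.B00361 (0.840). The residual r was 0.79 for ICE1, and 0.29 without 2 DAP replicate 3. It was -0.13 for Migut.B00361. The r of TWS1 was 0.629, and the receptors lay on the negative side, with GSO1 at -0.496, ALE2 at -0.480 and ACR4 at -0.763.

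Marker genes of several tissues were summed beside these values. They were taken as markers by homology, and no seed tissue was sequenced alone. The study leaves the role of its AGL62 homologues undetermined, and reports that Migut.B00480, counted among them here, peaks in ovules. Its text gives Migut.B01455 as the homologue of AGL34 and AGL90. Endosperm markers, 6 AGL62 homologues and AGL80 (Migut.B01455), ranged in sum from 3.43 to 8.83 normalized CPM in ovules, 21.0 to 73.1 at 2 DAP, 23.3 to 29.3 at 4 DAP, 9.87 to 35.1 at 6 DAP, and 1.86 to 3.45 at 8 DAP, where 3 of the 7 had no count. The sum was thus lowest among the seeds at 8 DAP, where the mean of Migut.N01183 was highest. Its members differed, and the AGL62 homologue Migut.A00408 had its lowest seed mean at 4 DAP, 0.737 ± 0.149 (SD, n = 3), with 1.69 ± 0.627 at 6 DAP and 1.40 ± 0.483 at 8 DAP (n = 4 each) and an r with Migut.N01183 of 0.574. The other AGL62 homologues tested had an r of -0.262 (Migut.B00479), -0.812 (Migut.B00480), -0.241 (Migut.B00708) and -0.160 (Migut.D01476), and AGL80 of 0.169. AGL80 was at 22.2, 32.8, 8.81 and 15.2 at 6 DAP and at 0, 0.355, 0 and 0 at 8 DAP. Embryo markers, homologues of FUS3, ABI3 and L1L, summed to between 1.14 and 3.17 in ovules, 4.04 and 23.3 at 2 DAP, 3.15 and 5.09 at 4 DAP, 23.9 and 32.1 at 6 DAP and 30.7 and 71.0 at 8 DAP. The study discusses these 3 under a heading on auxin and reserves in endosperm, so they may not be specific to the embryo. The seed coat markers TT10, TT4 and GL2 summed to between 41.3 and 60.0 in ovules, 29.0 and 138 at 2 DAP, 64.1 and 151 at 4 DAP, 421 and 910 at 6 DAP and 460 and 599 at 8 DAP. At 6 and 8 DAP nearly all of it was TT10 (Migut.C00171, a laccase of the seed coat), whose r with Migut.N01183 was 0.956. The other seed coat markers went the opposite way, with an r of -0.539 for TT4 (Migut.G00630) and -0.815 for GL2 (Migut.I00940).

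From 4 to 6 DAP 2 of 3 embryo markers (ABI3 and L1L) and 1 of 3 seed coat markers (TT10) were called up, as Migut.N01183 and 5.22% of all genes were, and their part in its values was not tested. The edgeR adjusted p of TT10 was 0.00302, and 0.0125 to 0.0270 without any of the 4 DAP libraries. In 2 DAP replicate 3 the summed embryo markers were at 23.3, against 4.04, 15.8 and 5.77 in replicates 1, 2 and 4. The seed coat sum was 138 there against 29.0, 52.9 and 29.8, the endosperm sum 73.1 against 21.0, 62.4 and 57.6, and the sum of 4 green tissue markers 906 against 230, 608 and 427. In normalized CPM that library was therefore the highest at its age in all 4 marker sums as well as in Migut.N01183, ICE1 and the 10 closest followers. TMM raised its values, with a scaled total of 11535762 for a total count of 16121733, against 10432292 for 12134820 in replicate 2. Its lead over replicate 2 in the endosperm sum depends on that scaling. Of the 2 DAP libraries, replicate 1 is the only one numbered 1 to 14, and it had the lowest count of Migut.N01183. Library number and level cannot be told apart at that age.

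Genes with neighbouring identifiers were checked because the gene models and the strand setting of the counting were not at hand, and reads of an overlapping or antisense neighbour could not be recognised. Migut.N01182, a homologue of CCoAOMT1, a methyltransferase of the lignin pathway, rose from 61.8, 63.2 and 56.5 normalized CPM at 4 DAP to 424, 364, 411 and 339 at 6 DAP (log2 fold change 2.67, edgeR adjusted p = 5.57e-05). It then fell by 1.43 on the log2 scale (adjusted p = 0.00217, and 0.0107 without 8 DAP replicate 3), and it was present in ovules, at 5.95 to 13.4. Migut.N01181, Migut.N01184 and Migut.N01185 were not called from 4 to 6 DAP. The neighbours of the other candidate, Migut.B00360 and Migut.B00362, were at 7.98 to 23.3 and 10.2 to 28.8 in ovules, where Migut.B00361 had no count.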

How the data were processed

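The authors built pseudo-references of both parental lines from variants called with GATK and aligned paired reads of strand-specific libraries with STAR. Read pairs that mapped properly and to a single place were counted per gene with featureCounts. The deposited values are raw counts, without normalization, and the strand setting, the remaining versions and gene lengths are not given in the sources used here. Total counts per library were 7588155 to 16529554, and no library pair of a time point agreed within sampling noise.

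Groups came from the sample labels. edgeR 4.0.16 (limma 3.58.1, R 4.3.3) was run on 20242 genes, those above 1 CPM in 3 or more libraries. Libraries were scaled by TMM, and the model held a coefficient for each time point. It used robust quasi-likelihood F tests, with Benjamini-Hochberg adjustment over all genes tested at an FDR of 0.01. The method was tested on simulated data. Migut.N01183 passed the filter only through seed libraries, and Migut.B00361 only through 6 and 8 DAP libraries. Where nothing says that libraries come from separate plants, p-values measure only the spread between libraries. Poisson intervals are exact at 95%.

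Members and lists were chosen with earlier results of these data known. Named are Migut.N01183, all genes of the pathway and cuticle lists, up to 4 of each other list with the largest change between 4 and 6 DAP, neighbours by identifier, the 10 highest and 3 lowest by r, the 5 highest by residual r, and the reference genes; others are said to be chosen after their values were seen. Alternatives were DESeq2 1.42.0, a likelihood ratio test, other scalings, no filter, replicate blocks, the library series (numbers 15 to 20 against 1 to 14) as a covariate, 2 time points alone and leaving out each library. Fits within libraries 1 to 14, and lists and folds with libraries left out, were added after seeing the data. Libraries that the study's library list assigns to the same maternal plant had, at different ages, a median residual correlation of 0.0067 in 28 pairs, and those of different plants -0.0073. Ovule replicates 3 to 5 counted here as different plants, although the study's methods give their pools mothers that also bore seeds. Homologues are the study's own best matches, and real-time PCR values were not used. Figures used Python 3.11.15 and matplotlib 3.10.9.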

Additional observations from a re-analysis of the deposited data

Results flagged for a closer look

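Libraries far from the others of their age were looked for in 29 groups of 4 or 5 libraries, for Migut.N01183 and the 7 pathway genes, and chance flags about 1 in 20 groups. Among them 2 were flagged, a number close to what chance gives. The rule takes the gap to the nearest library over the range of the group. Migut.B00361 was at 3.70 normalized CPM in 6 DAP replicate 3, against 1.22 or less in the other 6 DAP libraries. Migut.D01191 (ICE1) was at 3.73 in 2 DAP replicate 3, against 0.192 or less in the other 2 DAP libraries. Migut.N01183 itself had no library flagged by this rule, although its 2 DAP replicate 3 stood above the others of its age, as given above.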

How the results depend on the processing

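Migut.N01183 passed the joint test in every alternative (adjusted p up to 1.52e-05), and its rise from 4 to 6 DAP in all but those that leave out 4 DAP replicate 2 or 3 (0.000105 to 0.0142). From 0 to 4 DAP its adjusted p was 0.0136 with the maternal plant as replicate block. From 0 to 2 DAP it was 0.0275 within libraries 1 to 14. From 2 to 4 DAP the direction turned with the library series as a covariate (adjusted p = 0.402), within libraries 1 to 14 (0.157) and without 2 DAP replicate 3, with a range of 0.155 to 0.802 when 1 library was left out, and from 6 to 8 DAP it turned without TMM (0.984). The maternal plant block changed no other call of the 2 candidates. Median residual correlations of 0.0067 within plants and -0.0073 between plants did not decide whether that block is apt. With it, calls over all genes were 2486, 372, 1713 and 4241 over the 4 transitions, against 3700, 40, 1487 and 2892 without it. For Migut.B00361 the adjusted p from 0 to 4 DAP was 0.00604 by the likelihood ratio test and 0.00946 to 0.0768 with 1 library left out. From 2 to 6 DAP it was 0.0121 with the series covariate, from 4 to 6 DAP 0.0120 without TMM and 0.00498 to 0.0433 with 1 library left out, and from 6 to 8 DAP 0.0300 without TMM, 0.0112 without the filter and 0.00320 to 0.0372 with 1 library left out. Without TMM the median gene shifted by -0.40, 0.29, -0.21 and -0.44 over the 4 transitions, and calls in the pathway list came to 3, against 4 to 10 with 1 library left out. The 8 DAP mean was 9.11 CPM over total counts and 8.20 on the reference genes. Of the 10 closest genes, 2 were shared by Spearman's rho, 4 with seeds alone, 6 within libraries 1 to 14 and 0 by residuals. The difference of the log2 ratio ranged from -2.56 to -1.76 with 1 library left out. Over all genes, the 40 called from 2 to 4 DAP became 588 by the likelihood ratio test, 849 by DESeq2, 3 without TMM, 372 with the plant block, 1 with the series covariate, 87 within libraries 1 to 14 and 0 to 1249 with 1 library left out. The 1487 from 4 to 6 DAP became 2294, 2264 and 3182 by the likelihood ratio test, DESeq2 and within libraries 1 to 14, and 718 to 1712 with 1 library left out. The 2892 from 6 to 8 DAP became 4414 by DESeq2, 5445 with the series covariate, 7499 within libraries 1 to 14, 3848 without 2 DAP replicate 1, 1790 and 1791 without 8 DAP replicates 3 and 4 and fewer still without 6 DAP replicate 4, and the 3700 from 0 to 2 DAP 1066 within libraries 1 to 14. With 3 libraries and 48 counts in all at 4 DAP, counting error limits what can be said of that age. The cause of these shifts was not tested.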
